A study of Mus musculus with 9 samples.

Results

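Centrosome and centriole genes were followed across clones of mouse embryonic cells of different ploidy, meaning how many chromosome sets a cell carries. The 39 genes were listed by name, and a probe was taken as theirs when its RefSeq identifier in the array design belonged to the gene, with the brightest probe standing for a gene that had several. All 39 had a probe, 54 probes in all, and 38 of them entered the tests, out of 12434 named genes and 21802 features tested (named genes plus probes without a gene name). The genes were split by role into 6 factors that start centriole duplication, 12 that build the centriole or set its length, 6 of the pericentriolar material and satellites, 8 of the gamma-tubulin ring and augmin, and 7 of the appendages, the base of the cilium and the linker between centrioles.

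The study put 3 triploid, 3 tetraploid and 3 diploid clones on 9 one-colour Agilent arrays, 1 array per clone, and its title places triploidy in the setting of genome instability and tumour formation. All 9 clones were embryonic cells with the genotype p53-/-, so the diploid clones also lack the tumour suppressor p53, and all were grown untreated in minimum essential medium with fetal bovine serum. The free-text descriptions of all clones but diploid clone 1 carry other, rising gene numbers where the genotype field has p53, which was read as a slip in data entry. Each clone is 1 line, the labels do not say how the triploid and tetraploid clones arose or whether clones share an ancestor, and age and strain are not given. Ploidy therefore cannot be told apart from other differences between the clones, and p-values measure only the spread between these 9 samples, which may be technical.

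The centrosome is the main microtubule organiser of an animal cell. It holds a pair of centrioles inside a matrix, the pericentriolar material, which carries gamma-tubulin rings that seed microtubules. Centrioles duplicate once per cell cycle under the kinase PLK4, and cells with extra centrosomes can form spindles with too many poles. In p53-proficient cells extra centrosomes can halt growth through the PIDDosome, a complex that activates caspase 2 and stabilises p53, which these clones lack.

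The software called 44.8% to 50.9% of an array's spots well above background and marked 0 as saturated. Across features, triploid clone 1 correlated with triploid clones 2 and 3 at a Pearson's r of 0.948 and 0.956, against 0.985 between triploid clones 2 and 3. It lay nearer to diploid clone 2 (0.965), diploid clone 1 (0.959) and tetraploid clone 2 (0.957) than to either. Diploid clone 1 was alone on its slide, and the other 8 arrays shared the second slide. Of 10 markers of fibroblasts and mesenchyme, 9 were well above background on all 9 arrays, and the exception, Thy1, on 7. Of 5 epithelial markers 0 were, with Epcam and Cdh1 on no array and Krt18 on 6, among them all 3 diploid clones. The pluripotency genes Pou5f1 and Zfp42, the blood cell gene Ptprc and the glial gene Gfap were also on no array. Nanog, Pecam1, Kdr, Tubb3, Map2 and Sox10 were above background on all 9.

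Of the markers that could be tested 0 were called in any comparison, but the level of some lay apart between groups. The summed fibroblast and mesenchyme level, in multiples of an array's 75th percentile, was 735 to 1563 in triploid clones, 1323 to 1670 in tetraploid clones and 1264 to 1562 in diploid clones. At an unadjusted p under 0.05 there were 7 of the 10 genes for triploid minus diploid (21.2% of all features), 1 for tetraploid minus diploid (14.8%) and 5 for triploid minus tetraploid (20.8%). Thy1 differed by -8.71 ± 1.95 (adjusted p = 0.0603) and Prrx1 by -1.64 ± 0.48 (adjusted p = 0.109) for triploid minus diploid, and Pdgfrb by -2.11 ± 0.58 (adjusted p = 0.0871) for triploid minus tetraploid. Thy1 was well above background in only 2 triploid clones. The list went both ways, since 7 of the 10 genes lay lower and 3 higher in triploid than in diploid clones, by up to 1.77. Against tetraploid clones 7 also lay lower and 3 higher, by up to 1.41. The summed epithelial level was 0.184 to 0.459 in triploid clones, 0.143 to 0.425 in tetraploid clones and 0.423 to 2.19 in diploid clones. Krt18, a keratin, lay lower in all triploid clones (-3.04 ± 0.94, adjusted p = 0.122) and all tetraploid clones (-3.74 ± 0.94, adjusted p = 0.123) than in diploid clones. It was well above background in only 2 triploid clones and 1 tetraploid clone, so the size of these differences rests partly on signals near background. Triploid clone 3, at -1.57, lay just below diploid clone 3, at -1.49. Of the neural genes, Tubb3 differed by 3.15 ± 0.76 (adjusted p = 0.0625) and Map2 by -3.45 ± 1.03 (adjusted p = 0.103) for triploid minus tetraploid. The part of these differences in the members' values was not tested.

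The values below are log2 processed signals relative to the 75th percentile of the same array, so that 0 is that percentile, and a difference of 1 is a doubling. They compare clones at 1 probe and do not rank genes against each other. No member passed the test, a moderated linear model (limma) with an adjusted p under 0.05 over all features. Between triploid and diploid clones 0 of 38 members were called, against 1.83% of all features (0.615% higher and 1.22% lower in triploid clones). Between tetraploid and diploid clones 0 of 38 were called, against 0.0734% of features, and between triploid and tetraploid clones 0 of 38, against 2.7% (1.09% higher and 1.61% lower in triploid clones). A test of any difference among the groups called 0 of 38, against 2.38%. The smallest adjusted p values of members in these tests were 0.124, 0.187, 0.0633 and 0.0863. At an unadjusted p under 0.05 the members passing were 5 of 38 between triploid and diploid clones (21.2% of all features), 6 of 38 between tetraploid and diploid clones (14.8%) and 7 of 38 between triploid and tetraploid clones (20.8%). The unadjusted test of any difference passed 5 of 38 members, against 24.3% of features. The comparisons with diploid clones share the same 3 diploid arrays. In RNA from whole cultures, fewer cells of a type and less RNA per cell cannot be told apart.

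A looser description is whether the 3 clones of a group all lay on the same side of the 3 clones of the other. Triploid and diploid clones did not overlap at 12 members, 11 with the triploid clones above and 1 with them below, or 31.6% of the 38, against 28.0% of all features (17.2% above and 10.8% below). For tetraploid against diploid clones the count was 10 members, 8 above and 2 below, or 26.3%, against 22.1% of features (11.0% above and 11.1% below). Triploid and tetraploid clones did not overlap at 10 members, 5 above and 5 below, also 26.3%, against 26.0% of features (14.7% above and 11.3% below). The totals lay close to those of all features, but the directions were split otherwise against diploid clones. For triploid clones 28.9% of the members lay above and 2.63% below, and for tetraploid clones 21.1% above and 5.26% below, with no test of these shares. This split was not particular to the members. Of 53 other centrosome genes, given below, 26.4% lay above and 13.2% below for triploid clones. For tetraploid clones 26.4% of these lay above and 7.55% below. Of 18 proliferation genes, 10 lay above and 0 below for triploid clones, and 5 above and 0 below for tetraploid clones. The median difference over the members was 0.13 for triploid minus diploid, 0.08 for tetraploid minus diploid and -0.01 for triploid minus tetraploid, beside 0.10, -0.01 and 0.17 over all features. Scaling on the probes detected on all arrays moved the medians over all features to -0.05 for triploid minus diploid and -0.14 for tetraploid minus diploid, and those of the members to -0.01 and -0.04. The 95% interval of a member's difference reached 0.62 to either side in the median (0.43 to 0.99), compared with 0.68 over all features. The standard deviation (SD) between clones of a group was 0.32 in the median of the members (0.11 to 0.61) and 0.37 over all features.

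**Figure D1:**
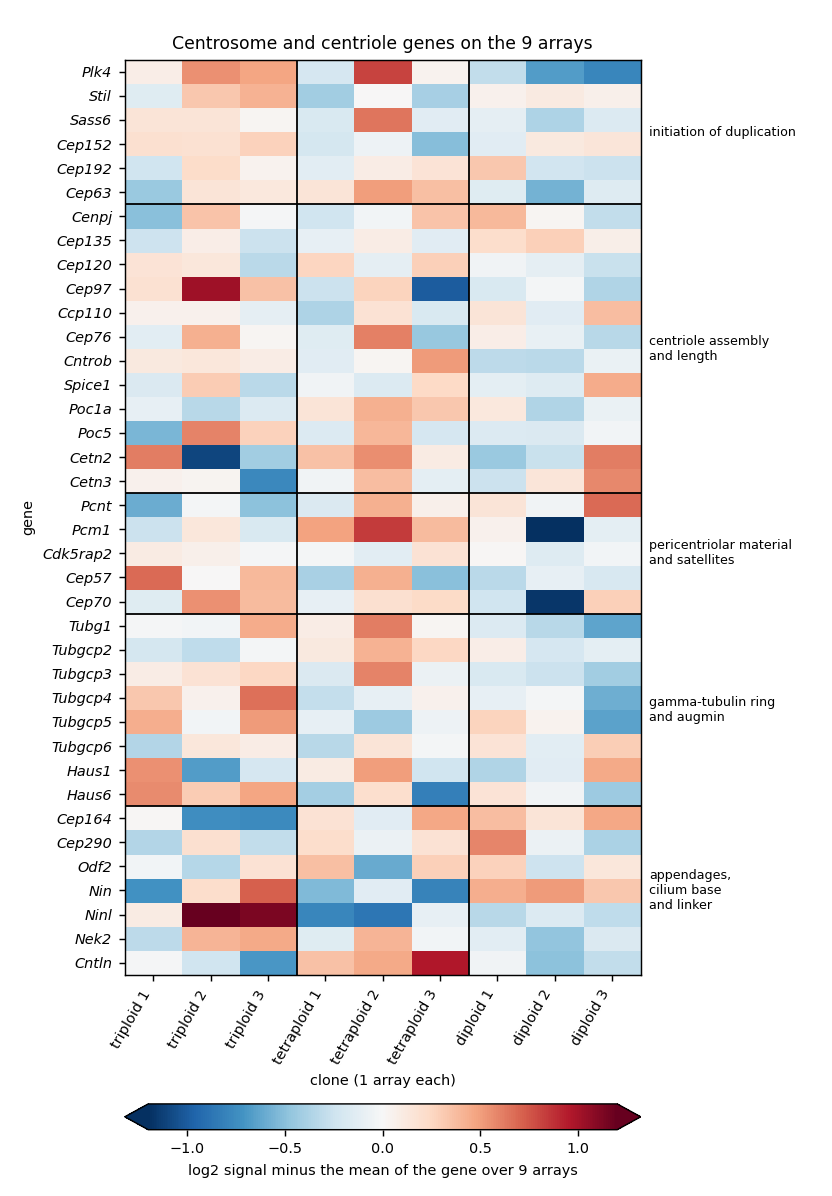
Log2 signal of the 38 tested centrosome and centriole genes on each array, with each gene set to 0 at its mean over the 9 arrays, genes grouped by role down the page and clones in columns, triploid, tetraploid and diploid. No role group separates the ploidies over all its genes, and within a group single clones differ, such as diploid clone 2, lowest of the 9 arrays at 8 of the 38 genes.

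**Figure D2:**
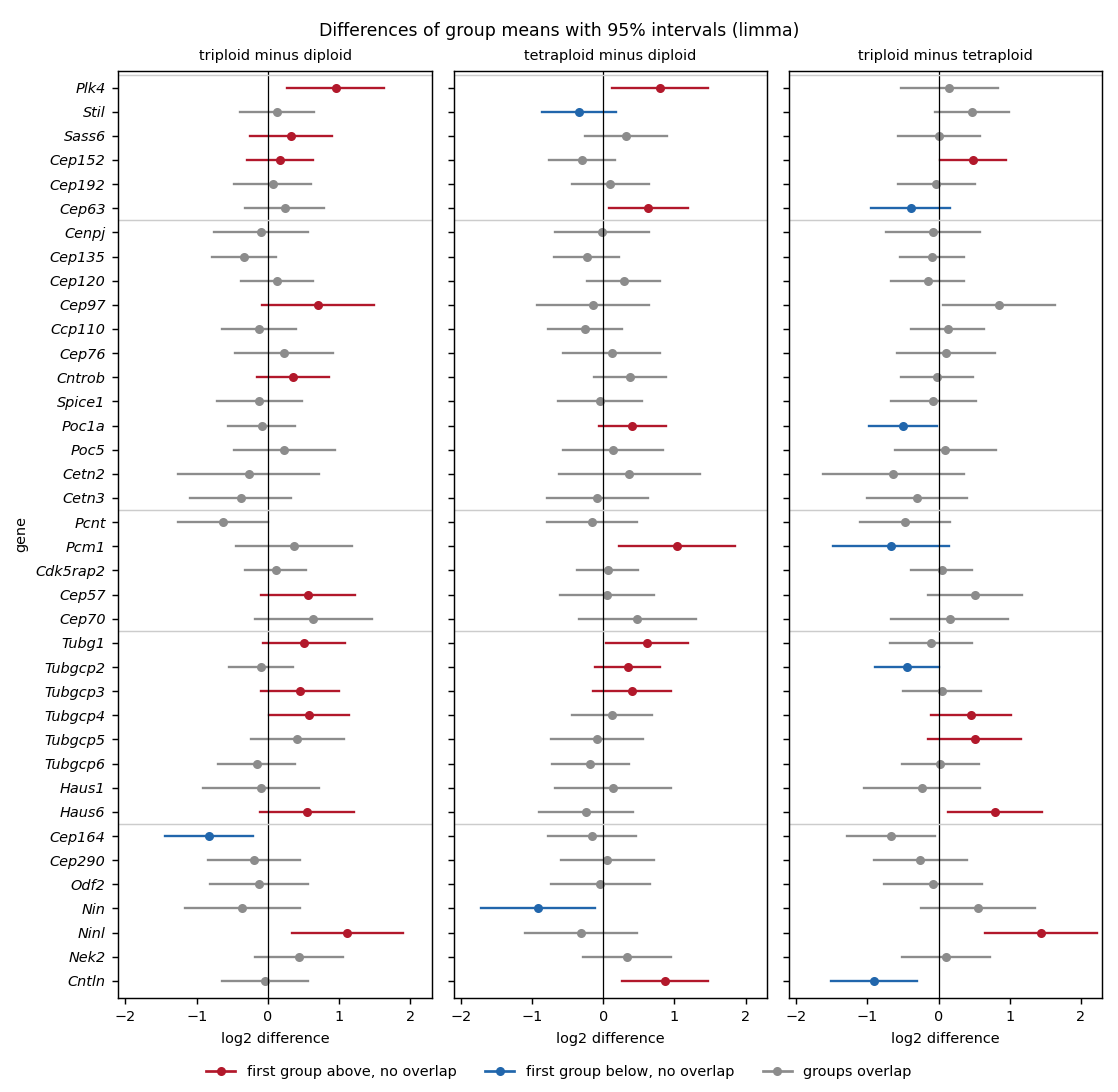
Log2 difference of each tested gene with its 95% interval for the 3 comparisons, red where all clones of the first group lay above those of the second, blue where all lay below and grey where they overlapped. The intervals reach between 0.43 and 0.99 to either side, and 0 of 38 genes passed the adjusted test in any panel.

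Of the factors that start duplication, PLK4 is the master kinase, STIL and SAS-6 are the proteins it acts on to build the cartwheel of the new centriole, and CEP152, CEP192 and CEP63 recruit PLK4 to the parent centriole. Of the 6, 0 were called in any comparison, and 1, 2 and 1 had an unadjusted p under 0.05 for triploid minus diploid (21.2% of all features), tetraploid minus diploid (14.8%) and triploid minus tetraploid (20.8%). Plk4, on chromosome 3, had log2 values of 0.15, 0.62 and 0.54 in triploid clones 1 to 3. Tetraploid clones 1 to 3 had -0.13, 0.88 and 0.11, and diploid clones 1 to 3 had -0.23, -0.60 and -0.72. All triploid and all tetraploid clones thus lay above all diploid clones, tetraploid clone 1 by the least. The difference was 0.95 ± 0.30 (standard error, SE, of the model) for triploid minus diploid, a fold of 1.93, with a 95% interval of 0.27 to 1.63 and an adjusted p of 0.127. For tetraploid minus diploid it was 0.80 ± 0.30, a fold of 1.74, with an interval of 0.12 to 1.48 and an adjusted p of 0.262, and without tetraploid clone 2 it was 0.50. Triploid minus tetraploid was 0.15 ± 0.30. Over the alternative settings the adjusted p of Plk4 ranged between 0.0743 and 0.340 for triploid minus diploid and between 0.227 and 0.620 for tetraploid minus diploid. The median over the 18 genes of the proliferation list, given below per clone, was also lowest in the diploid clones, though not each of its genes was, and their part in the Plk4 values was not tested. The promoter of Plk4 (RefSeq, GRCm38.p6, 250 bases before to 50 after the start, chr3:40799701-40800000, plus strand) is printed because Plk4 is the member that starts the pathway. The capitals mark GCGGGAA, the core of sites bound by E2F factors, which drive genes of the G1/S transition.

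Plk4: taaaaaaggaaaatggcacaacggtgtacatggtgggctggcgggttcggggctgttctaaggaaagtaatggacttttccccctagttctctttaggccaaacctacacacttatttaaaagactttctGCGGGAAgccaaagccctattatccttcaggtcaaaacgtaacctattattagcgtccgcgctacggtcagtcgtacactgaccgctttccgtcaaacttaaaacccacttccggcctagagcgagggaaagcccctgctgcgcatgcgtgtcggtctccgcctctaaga

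The other 5 starting factors spread less evenly. Sass6 had -0.85, -0.85 and -0.99 in triploid clones and -1.19, -0.37 and -1.14 in tetraploid clones, against -1.12, -1.38 and -1.17 in diploid clones. Its triploid minus diploid difference was 0.33 ± 0.26, with the triploid clones all above. Cep152 had -0.47, -0.48 and -0.38 in triploid clones and -0.87, -0.72 and -1.17 in tetraploid clones, against -0.79, -0.55 and -0.51 in diploid clones. The triploid clones thus lay above both other groups, by 0.48 ± 0.21 over the tetraploid clones (adjusted p = 0.227). Stil had -0.19, 0.28 and 0.37 in triploid clones and -0.46, -0.04 and -0.45 in tetraploid clones, against 0.00, 0.06 and 0.01 in diploid clones, and the tetraploid clones all lay below the tight diploid values. That difference was -0.34 ± 0.23 (adjusted p = 0.515). Cep63 averaged 3.03 ± 0.34 in triploid clones, 3.42 ± 0.17 in tetraploid clones and 2.79 ± 0.24 in diploid clones (SD, n = 3 each), and the tetraploid clones lay above both other groups. Its tetraploid minus diploid difference was 0.63 ± 0.25 (adjusted p = 0.279). Cep192 varied within every group, and its groups overlapped throughout. Its values were 0.17, 0.63 and 0.45 in triploid clones, 0.28, 0.49 and 0.57 in tetraploid clones and 0.73, 0.18 and 0.15 in diploid clones (triploid minus diploid 0.06 ± 0.24, with an interval of -0.48 to 0.60). The median over the 6 genes was 0.21 for triploid minus diploid, 0.21 for tetraploid minus diploid and 0.08 for triploid minus tetraploid.

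Of the genes that build the centriole or set its length, 0 of 12 were called in any comparison. At an unadjusted p under 0.05 there were 0 against diploid clones (21.2% of all features for triploid and 14.8% for tetraploid clones) and 2 for triploid minus tetraploid (20.8%). Their median difference was -0.09 for triploid minus diploid, 0.05 for tetraploid minus diploid and -0.08 for triploid minus tetraploid. Cep97 encodes the partner of CP110 in the cap that limits growth of the centriole and blocks the cilium. It had 0.37, 1.21 and 0.55 in triploid clones and -0.06, 0.45 and -0.81 in tetraploid clones, against 0.01, 0.16 and -0.17 in diploid clones. The triploid clones lay above the diploid clones, and the tetraploid clones spread over both. The difference was 0.71 ± 0.35 for triploid minus diploid (adjusted p = 0.282) and 0.85 ± 0.35 for triploid minus tetraploid (adjusted p = 0.208). Without triploid clone 2 the first was 0.46, and without tetraploid clone 3 the second was 0.52. Ccp110, the gene of CP110 itself, averaged 0.70 ± 0.09 in triploid clones, 0.57 ± 0.28 in tetraploid clones and 0.83 ± 0.26 in diploid clones (SD, n = 3 each), with all groups overlapping.

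Poc1a, for a protein of the centriole wall that keeps centrioles stable, had 3.80, 3.57 and 3.74 in triploid clones and 4.05, 4.32 and 4.22 in tetraploid clones, against 4.02, 3.53 and 3.82 in diploid clones. Every tetraploid clone lay above every other clone, by 0.41 ± 0.21 over diploid clones (adjusted p = 0.399), and triploid minus tetraploid was -0.50 ± 0.21 (adjusted p = 0.220). Cntrob, for a protein of the daughter centriole, had -0.45, -0.43 and -0.48 in triploid clones and -0.70, -0.54 and -0.06 in tetraploid clones, against -0.88, -0.89 and -0.64 in diploid clones (triploid minus diploid 0.35 ± 0.22, adjusted p = 0.407). Its triploid clones lay above the diploid ones and within 0.05 of each other.

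Cenpj, the gene of the elongation factor CPAP, moved as much within groups as between them. It had 0.20, 1.05 and 0.69 in triploid clones, 0.47, 0.67 and 1.05 in tetraploid clones and 1.10, 0.73 and 0.41 in diploid clones, and triploid minus diploid was -0.10 ± 0.29 with an interval of -0.76 to 0.56. Cetn3, a centrin, a calcium-binding protein of the centriole lumen, had 4.88, 4.87 and 4.06 in triploid clones and 4.79, 5.21 and 4.72 in tetraploid clones, against 4.57, 4.98 and 5.41 in diploid clones (triploid minus diploid -0.38 ± 0.31, adjusted p = 0.531). The related Cetn2 had the widest spread between clones of a group of all tested members, a pooled SD of 0.61, and ran between 3.72 and 5.42 in triploid clones, between 4.91 and 5.37 in tetraploid clones and between 4.37 and 5.43 in diploid clones. The elongation factor gene Cep120, the cartwheel-stabilising Cep135, the brake on reduplication Cep76, the spindle and centriole gene Spice1, and Poc5, for a centrin-binding protein, overlapped between the groups in every comparison, with differences between -0.33 and 0.28.

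The pericentriolar material is scaffolded by pericentrin (Pcnt) and CDK5RAP2, and PCM1 builds the satellites that bring proteins to it. Of the 6 genes 5 could be tested, and 0 were called, with 1 at an unadjusted p under 0.05 for triploid minus diploid (21.2% of all features) and 1 for tetraploid minus diploid (14.8%). Pcm1, on chromosome 8, had 0.64, 1.03 and 0.72 in triploid clones and 1.39, 1.74 and 1.28 in tetraploid clones, against 0.95, -0.44 and 0.78 in diploid clones. At this probe, the brighter of 2, the tetraploid clones lay above all others, and diploid clone 2 stood far below the other diploid clones. Tetraploid minus diploid was 1.04 ± 0.36, a fold of 2.05, with an interval of 0.23 to 1.85 and an adjusted p of 0.234. Without diploid clone 2 it was 0.60, and triploid minus diploid, 0.37 ± 0.36 with all clones, was -0.07.

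Pcnt had 1.50, 2.08 and 1.60 in triploid clones and 1.92, 2.52 and 2.16 in tetraploid clones, against 2.25, 2.05 and 2.78 in diploid clones. Triploid clone 2 overlapped the diploid clones, and the triploid minus diploid difference was -0.63 ± 0.28 (adjusted p = 0.235). Cdk5rap2 had the smallest spread within groups, a pooled SD of 0.11. It had 2.68, 2.64 and 2.57 in triploid clones, 2.56, 2.46 and 2.75 in tetraploid clones and 2.60, 2.43 and 2.55 in diploid clones. Its differences of 0.11 ± 0.19 for triploid minus diploid and 0.06 ± 0.19 for tetraploid minus diploid had intervals of -0.32 to 0.53 and -0.36 to 0.49.

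Cep57, for a protein that helps hold the paired centrioles together, had 2.99, 2.31 and 2.69 in triploid clones and 1.92, 2.73 and 1.80 in tetraploid clones, against 1.99, 2.21 and 2.12 in diploid clones (triploid minus diploid 0.56 ± 0.29, adjusted p = 0.312). The triploid clones lay above the diploid ones, triploid clone 2 by the least. Cep70, for a centrosome protein that binds gamma-tubulin, averaged 0.54 ± 0.36 in triploid clones, 0.38 ± 0.18 in tetraploid clones and -0.10 ± 0.73 in diploid clones (SD, n = 3 each), where diploid clone 2 was the lowest of all arrays at -0.89. Cep72, a partner of satellites and of the gamma-tubulin ring, was not tested. It was not well above background in any triploid clone, was above it in tetraploid clones 1 and 3 at -3.13 and -1.87, and among diploid clones in clone 3 at -2.60. Set against the dimmest signals that still counted as well above background in triploid clones, the mean over all 3 tetraploid arrays, of which 2 were well above background, was at least 2.11-fold higher, without a test. Tetraploid clone 2, at -3.05, was not called above background although other probes on that array were at -4.00, so the bound is approximate. The measured means were -2.69 in tetraploid clones and -5.60 in triploid clones.

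Gamma-tubulin (Tubg1) and the GCP proteins (Tubgcp2 to Tubgcp6) form the ring that seeds microtubules, and augmin, whose subunits include HAUS1 and HAUS6, recruits rings to the sides of spindle microtubules. Of these 8 genes 0 were called. An unadjusted p under 0.05 was found for 1 in each comparison, against 21.2% of all features for triploid minus diploid, 14.8% for tetraploid minus diploid and 20.8% for triploid minus tetraploid. The median difference was 0.44 for triploid minus diploid, 0.13 for tetraploid minus diploid and 0.04 for triploid minus tetraploid. Tubg1, on chromosome 11, had 3.99, 3.97 and 4.45 in triploid clones and 4.10, 4.62 and 4.03 in tetraploid clones, against 3.85, 3.68 and 3.37 in diploid clones. All polyploid clones lay above all diploid clones, by 0.51 ± 0.25 for triploid minus diploid (adjusted p = 0.293) and by 0.62 ± 0.25 for tetraploid minus diploid (adjusted p = 0.306). Tubgcp3, the gene of the core ring subunit GCP3, had 3.38, 3.47 and 3.55 in triploid clones and 3.13, 3.90 and 3.23 in tetraploid clones, against 3.11, 3.04 and 2.88 in diploid clones. The same order held, by 0.46 ± 0.24 for triploid minus diploid (adjusted p = 0.320) and by 0.40 ± 0.24 for tetraploid minus diploid (adjusted p = 0.471).

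Other subunits did not share this order. Tubgcp2, the other core subunit gene, averaged 0.46 ± 0.14 in triploid clones, 0.90 ± 0.15 in tetraploid clones and 0.56 ± 0.14 in diploid clones (SD, n = 3 each), with the tetraploid clones above both other groups and by 0.34 ± 0.20 above the diploid clones (adjusted p = 0.459). Tubgcp4, for a further ring subunit, had 0.75, 0.48 and 1.08 in triploid clones and 0.14, 0.33 and 0.47 in tetraploid clones, against 0.32, 0.40 and -0.16 in diploid clones, with the triploid clones above both other groups (triploid minus diploid 0.58 ± 0.25, adjusted p = 0.219). Tubgcp5 averaged -1.48 ± 0.29 in triploid clones, -1.98 ± 0.21 in tetraploid clones and -1.89 ± 0.47 in diploid clones (SD, n = 3 each), and its triploid clones lay above the tetraploid ones. Tubgcp6 overlapped in every comparison, with differences between -0.18 and 0.02.

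Haus6, on chromosome 4, had 2.05, 1.78 and 1.95 in triploid clones and 1.07, 1.68 and 0.65 in tetraploid clones, against 1.64, 1.43 and 1.04 in diploid clones. The triploid clones lay above both other groups. Triploid minus tetraploid was 0.79 ± 0.29 with an adjusted p of 0.168, and triploid minus diploid was 0.55 ± 0.29 with an adjusted p of 0.316, or 0.35 with normexp background correction and quantile normalization. Haus1, a subunit of the same complex, did not follow it, with 6.50, 5.29 and 5.75 in triploid clones, 6.06, 6.46 and 5.72 in tetraploid clones and 5.59, 5.82 and 6.41 in diploid clones (triploid minus diploid -0.10 ± 0.36). Each group of clones spanned more than the distance between any pair of group means.

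**Figure D3:**
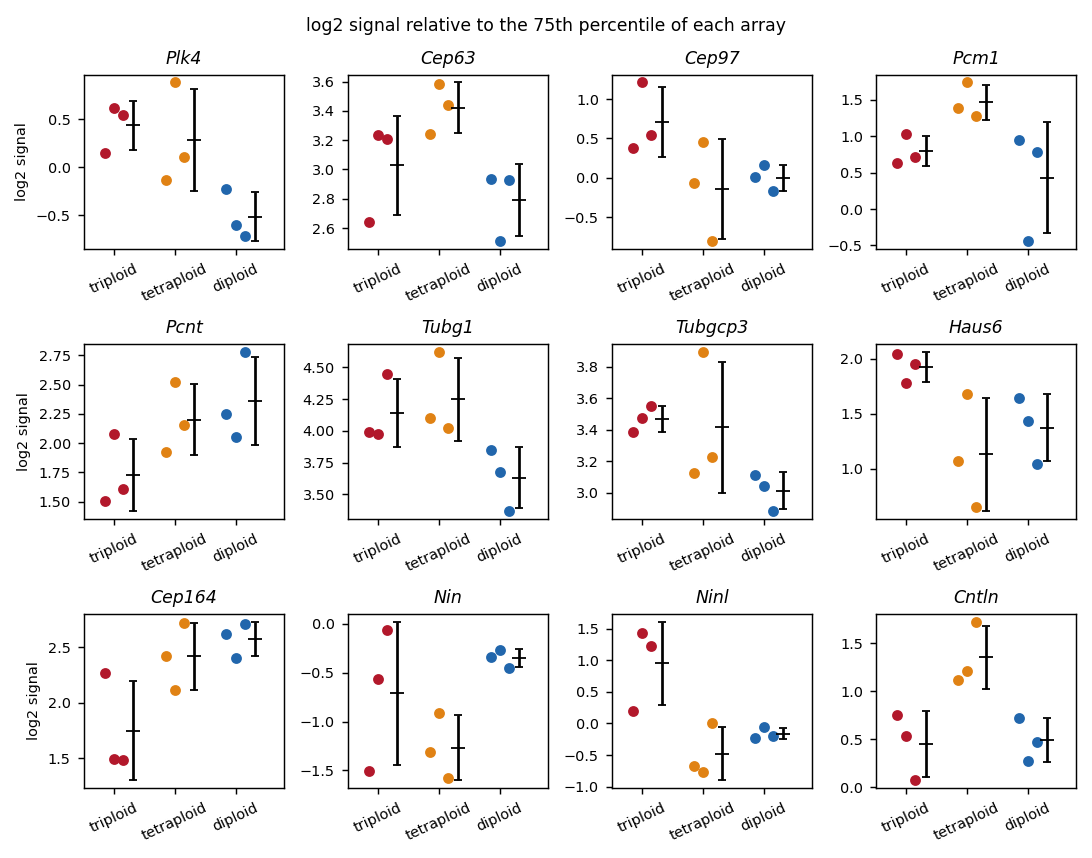
Log2 signal, with 0 at the array's 75th percentile, for 12 genes, 1 panel each, with a point per clone and the mean ± SD of 3 clones for triploid, tetraploid and diploid clones in that order. Plk4, Tubg1 and Tubgcp3 had every triploid and tetraploid clone above every diploid clone, Ninl had the triploid clones above both other groups, and Pcm1 and Cntln the tetraploid clones.

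The last group joins proteins of the distal and subdistal appendages, the base of the cilium and the linker that tethers the centrioles. Of its 7 genes 0 were called, with 2, 2 and 3 at an unadjusted p under 0.05 for triploid minus diploid (21.2% of all features), tetraploid minus diploid (14.8%) and triploid minus tetraploid (20.8%). Its median differences were -0.12 for triploid minus diploid, -0.04 for tetraploid minus diploid and -0.08 for triploid minus tetraploid, and it held the largest single differences of the tested members in both directions. Ninl, on chromosome 2, encodes a ninein-like protein that anchors microtubules at the centrosome. It had 0.20, 1.43 and 1.24 in triploid clones and -0.68, -0.76 and 0.00 in tetraploid clones, against -0.23, -0.06 and -0.20 in diploid clones. The triploid clones lay above both other groups, and triploid clone 1 was far nearer to them than triploid clones 2 and 3. Triploid minus diploid was 1.12 ± 0.35, a fold of 2.17, with an interval of 0.33 to 1.90 and an adjusted p of 0.124. Triploid minus tetraploid was 1.43 ± 0.35, a fold of 2.70, with an interval of 0.65 to 2.22 and an adjusted p of 0.0633, the smallest of any member in any pair of groups.

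Cep164, on chromosome 9, encodes a distal appendage protein needed to dock the centriole at the membrane for a cilium. It had 2.26, 1.50 and 1.48 in triploid clones and 2.42, 2.11 and 2.71 in tetraploid clones, against 2.61, 2.40 and 2.71 in diploid clones. At the brightest probe of each gene, Cep164 was the 1 member with all triploid clones below all diploid clones, by -0.83 ± 0.28, or 1.77-fold lower (interval -1.45 to -0.20, adjusted p = 0.143). Again triploid clone 1 was the nearest to the diploid clones. Without triploid clone 1, Cep164 and Ninl were both called between triploid and diploid clones, at -1.08 (adjusted p = 0.0423) and 1.50 (adjusted p = 0.0214), and Ninl also between triploid and tetraploid clones, at 1.81 (adjusted p = 0.0104). Leaving out that clone also took the count of features called between triploid and diploid clones to 1434 of 21802. Over all alternatives the adjusted p between triploid and diploid clones ranged between 0.0423 and 0.380 for Cep164 and between 0.0214 and 0.351 for Ninl. No other member was called under any alternative tried.

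The promoters of both genes are printed because they were called in opposite directions in that setting. In Cep164 (chr9:45828614-45828913, minus strand) the capitals mark CCAAT boxes, read on either strand, at positions -74, -69 and -40 counted as the first base from the start, and TTTGAA at -128, a core of the cell cycle genes homology region. In Ninl (chr2:151009349-151009648, minus strand) 0 of the 3 motifs searched were found on either strand, so it has no capitals.

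Cep164: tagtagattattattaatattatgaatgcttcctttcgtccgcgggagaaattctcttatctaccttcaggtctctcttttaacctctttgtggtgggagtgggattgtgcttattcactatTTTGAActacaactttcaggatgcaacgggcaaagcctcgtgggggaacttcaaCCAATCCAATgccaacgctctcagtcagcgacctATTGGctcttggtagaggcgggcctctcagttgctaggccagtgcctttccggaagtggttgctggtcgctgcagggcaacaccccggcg
Ninl: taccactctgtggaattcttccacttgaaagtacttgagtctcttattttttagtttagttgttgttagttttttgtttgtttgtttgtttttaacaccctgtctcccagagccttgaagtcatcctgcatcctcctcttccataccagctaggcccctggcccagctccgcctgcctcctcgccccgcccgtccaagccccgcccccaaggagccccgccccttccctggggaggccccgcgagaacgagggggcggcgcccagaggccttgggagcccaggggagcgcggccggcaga

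Cntln, on chromosome 4, encodes centlein, a linker protein between centrioles. It had 0.75, 0.53 and 0.07 in triploid clones and 1.12, 1.22 and 1.73 in tetraploid clones, against 0.73, 0.28 and 0.47 in diploid clones. The tetraploid clones lay above all others, by 0.86 ± 0.27 over diploid clones, a fold of 1.82 (interval 0.26 to 1.46, adjusted p = 0.187, the smallest of any member in that comparison). Triploid minus tetraploid was -0.90 ± 0.27 (adjusted p = 0.101), and triploid and diploid clones overlapped at -0.04 ± 0.27. Its promoter (chr4:84884059-84884358, plus strand) carries the GCGGGAA also found in Plk4, here in capitals at -115, against -120 in Plk4.

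Cntln: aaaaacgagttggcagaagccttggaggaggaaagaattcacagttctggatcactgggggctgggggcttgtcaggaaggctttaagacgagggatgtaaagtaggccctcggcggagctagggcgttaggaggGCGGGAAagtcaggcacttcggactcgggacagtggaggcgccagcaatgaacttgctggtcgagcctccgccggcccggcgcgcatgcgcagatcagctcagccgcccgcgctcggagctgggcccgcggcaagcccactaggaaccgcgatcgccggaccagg

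Nin, the gene of ninein, which sits on subdistal appendages and anchors microtubules, had -1.51, -0.56 and -0.06 in triploid clones and -1.31, -0.91 and -1.58 in tetraploid clones, against -0.34, -0.26 and -0.45 in diploid clones. The tetraploid clones lay below the diploid clones by -0.91 ± 0.36 (interval -1.72 to -0.11, adjusted p = 0.278), while the triploid clones spread over both. Odf2, the gene of cenexin, a base of the subdistal appendages, had 1.38, 1.07 and 1.59 in triploid clones, 1.77, 0.81 and 1.70 in tetraploid clones and 1.69, 1.16 and 1.55 in diploid clones (triploid minus diploid -0.12 ± 0.31), with all groups overlapping. Nek2, the kinase that dissolves the linker before mitosis, averaged 1.43 ± 0.43 in triploid clones, 1.32 ± 0.29 in tetraploid clones and 0.99 ± 0.19 in diploid clones (SD, n = 3 each), and Cep290, of the ciliary transition zone, -2.16 ± 0.30 in triploid clones, -1.91 ± 0.15 in tetraploid clones and -1.97 ± 0.50 in diploid clones. Both overlapped in every comparison.

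For 9 of the members more than 1 probe was kept, so that stretches of a transcript could be compared. Cep63 and Tubgcp6 had 2 probes each on the array, of which 1 was kept, and Cntln had 4, of which 2 were kept. All kept probes of a gene had the same sign in 9 of 9 genes for triploid minus diploid, in 8 of 9 for tetraploid minus diploid and in 7 of 9 for triploid minus tetraploid. The 3 probes of Cep164 gave triploid minus diploid differences between -0.83 and -0.49, and the 2 of Ninl 1.02 and 1.12, with triploid minus tetraploid at 1.43 and 1.70. At the second Ninl probe, triploid clone 1 had -1.14 and lay within the diploid values of -1.18, -1.55 and -0.92. At 1 of the 3 Cep164 probes, triploid clone 1 had -0.39 and diploid clone 2 -0.51, so triploid and diploid clones overlapped at these probes, while triploid clones lay above tetraploid clones at both Ninl probes. The 2 kept probes of Cntln gave 0.79 and 0.86 for tetraploid minus diploid, the 2 of Pcm1 0.69 and 1.04, and the 3 of Nin between -0.91 and -0.53. At the second Pcm1 probe, tetraploid clones had -0.11, 0.43 and 0.02 and triploid clones -0.50, 0.34 and 0.45, so these groups overlapped. Triploid minus tetraploid was -0.02 there, against -0.67 at the brightest Pcm1 probe. For Haus6, triploid minus tetraploid was 0.79 and 0.85, and triploid minus diploid 0.55 and 0.73. At the second Haus6 probe, triploid clone 2 had 0.33 and diploid clones 1 and 2 had 0.60 and 0.39, so triploid and diploid clones overlapped there. For triploid minus diploid the 3 Nin probes ran between -0.73 and -0.01. At the second Nin probe, the lowest of these, all triploid clones (-2.33, -1.70 and -2.19) lay below all diploid clones (-1.33, -1.23 and -1.46). The signs parted in Cep164 for tetraploid minus diploid (-0.16 to 0.20), and for triploid minus tetraploid in Nin (-0.08 to 0.56) and Cdk5rap2 (-0.14 to 0.04). Probes of 1 gene share the same RNA samples and are not replicates.

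**Figure D4:**
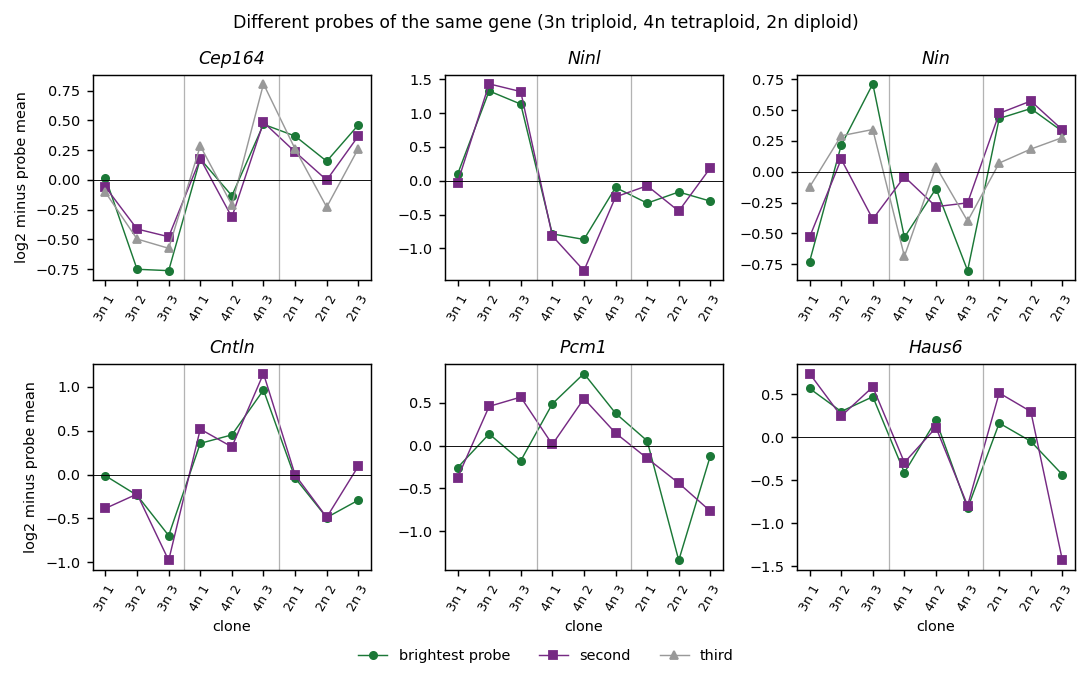
Log2 signal of every kept probe of Cep164, Ninl, Nin, Cntln, Pcm1 and Haus6, as lines over the 9 clones in the order triploid (3n), tetraploid (4n) and diploid (2n), each line set to 0 at its own mean. Cdk5rap2, Odf2 and Poc1a also had more than 1 kept probe and are not drawn. Both Ninl probes were highest in triploid clones 2 and 3, and all 3 Cep164 probes had triploid clones 2 and 3 below triploid clone 1.

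Of the 39 members, 31 had a promoter in the RefSeq table, 37 windows in all, since a gene can have several starts. GCGGGAA on either strand stood in 9 of 37 windows (24.3%), against 7.89% of the windows of named genes tested and 4.60% of all 32851 windows. The 9 windows belonged to Plk4, Stil and Cep152 of the starting factors, Pcnt, Cep70 and 2 windows of Cep57 of the pericentriolar material, Tubgcp3 of the ring and Cntln of the linker. No window of the genes that build the centriole held it. CCAAT stood in 51.4% of the members' windows, against 37.7% of those of named genes tested, and 37.4% of all windows, and TTTGAA in 24.3%, against 12.2% and 17.9%. The windows of a gene with several starts can overlap, the motifs were searched after the values were known, and a match of these letters is a description and not a bound site.

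Other genes of the centrosome were taken from a list of 55, of which 53 could be tested. The list was chosen with earlier results of these data known, so its shares are a description and were not tested. Between triploid and diploid clones 4 were called, or 7.55%, against 1.83% of all features, 1 of them higher (0.615% of features) and 3 lower (1.22%). Cep128, a subdistal appendage gene, had -3.66, -3.35 and -2.68 in triploid clones and -1.84, -1.81 and -1.40 in tetraploid clones, against -1.52, -1.22 and -1.49 in diploid clones, and was lower in triploid clones, with differences of -1.81 ± 0.28 from diploid clones (adjusted p = 0.0227) and -1.54 ± 0.28 from tetraploid clones (adjusted p = 0.0299). It was well above background on 8 of 9 arrays, and with normexp background correction and quantile normalization the differences were -0.78 and -0.68. Wdr62, a spindle pole gene tied to microcephaly in humans, had 1.55, 1.53 and 1.36 in triploid clones and 2.31, 2.22 and 2.13 in tetraploid clones, against 2.65, 2.33 and 2.76 in diploid clones (triploid minus diploid -1.10 ± 0.20, adjusted p = 0.0379). In both genes the triploid clones lay below both other groups.

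Kif24, a kinesin that works with CP110 to hold back the cilium, had -0.56, -1.49 and -0.99 in triploid clones and -0.47, -0.54 and -0.94 in tetraploid clones, against 0.77, 0.17 and 0.33 in diploid clones (triploid minus diploid -1.43 ± 0.29, adjusted p = 0.0490). Ssx2ip, for a satellite protein, had 1.86, 2.81 and 2.37 in triploid clones and 1.54, 2.27 and 1.70 in tetraploid clones, against 1.06, 0.56 and 0.85 in diploid clones, and rose by 1.52 ± 0.31 in triploid clones (adjusted p = 0.0480). In both genes the diploid clones lay on 1 side of all polyploid clones. Between tetraploid and diploid clones 0 of 53 were called, against 0.0734% of all features, and 12 (22.6%) had an unadjusted p under 0.05, against 14.8%. Between triploid and tetraploid clones only Cep128 was called, or 1.89% of the 53, against 2.7% of all features. In that comparison 8 (15.1%) had an unadjusted p under 0.05, against 20.8%. The call of Cep128 was lost under 7 of 18 alternatives between triploid and diploid clones and under 8 of 18 between triploid and tetraploid clones, and between triploid and diploid clones that of Wdr62 was lost under 10 of 19, of Kif24 under 12 of 19 and of Ssx2ip under 11 of 19, and without diploid clone 1, 2 or 3, or without triploid clone 2, 0 of the 53 genes were called.

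Of 15 tested regulators of centrosome number and maturation, 0 were called against diploid clones, with 0 for triploid (21.2% of all features) and 1 for tetraploid clones (14.8%) at an unadjusted p under 0.05. Between triploid and tetraploid clones 1 of the 15 was called, against 2.7% of all features. There, 1 of the 15 (6.67%) had an unadjusted p under 0.05, against 20.8%. The called gene, Plk3, a stress-responsive polo kinase, had 1.07, 1.50 and 1.36 in triploid clones against 0.03, 0.29 and 0.28 in tetraploid clones, a difference of 1.11 ± 0.22 (adjusted p = 0.0356), and it had 1.21, 1.61 and 1.32 in diploid clones. That call was lost under 8 of 19 alternatives. Of the 11 genes of the PIDDosome and the mitotic surveillance pathway, 0 were called in any comparison. At an unadjusted p under 0.05 there were 2, 2 and 6 for triploid minus diploid (21.2% of all features), tetraploid minus diploid (14.8%) and triploid minus tetraploid (20.8%). Casp2, the caspase that the PIDDosome activates, had 3.71, 4.27 and 4.31 in triploid clones and 3.26, 3.37 and 3.17 in tetraploid clones, against 3.35, 3.16 and 3.19 in diploid clones (triploid minus diploid 0.86 ± 0.22, adjusted p = 0.0850). Pidd1, its scaffold, had -1.99, -2.05 and -1.94 in triploid clones and -2.76, -2.19 and -2.62 in tetraploid clones, against -1.89, -1.74 and -1.43 in diploid clones (tetraploid minus diploid -0.84 ± 0.23, adjusted p = 0.146). Trp53bp1, a sensor of long mitoses and DNA breaks, differed by 0.90 ± 0.24 for triploid minus diploid (adjusted p = 0.0915), and Cdkn1a, the CDK inhibitor p21, by -2.01 ± 0.59 for triploid minus tetraploid (adjusted p = 0.101), where triploid clone 1 was the lowest array at -3.31.

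Genes of proliferating cells are given since many centrosome genes are transcribed with the cell cycle. Of 18 tested, 0 were called in any comparison. An unadjusted p under 0.05 was found for 10 between triploid and diploid clones (21.2% of all features), 4 between tetraploid and diploid clones (14.8%) and 2 between triploid and tetraploid clones (20.8%). Their median difference was 0.60 for triploid minus diploid and 0.40 for tetraploid minus diploid. The smallest adjusted p values for triploid minus diploid were those of the spindle motor gene Kif11 (1.33 ± 0.31, adjusted p = 0.0654) and the replication helicase gene Mcm5 (1.54 ± 0.45, adjusted p = 0.106). With each gene set to 0 at its mean, the median over the list was 0.06, 0.35 and 0.29 in triploid clones 1 to 3 and -0.05, 0.52 and -0.13 in tetraploid clones 1 to 3, against -0.15, -0.44 and -0.44 in diploid clones 1 to 3. The same median over the 38 members was -0.01, 0.14 and 0.07 in triploid clones and -0.13, 0.19 and 0.03 in tetraploid clones, against -0.04, -0.15 and -0.12 in diploid clones. Tetraploid clone 2 was the highest array in both lists, and the part of proliferation in the members' values was not tested.

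Cells that make many cilia amplify centrioles in bulk, so their markers were checked. The master genes Foxj1 and Gmnc were well above background on no array, while Mcidas, Deup1 and Ccno were on all 9. Of 4 tested genes of that list, 1 was called between triploid and tetraploid clones, against 2.7% of all features, and 0 against diploid clones. An unadjusted p under 0.05 was found for 2 in each comparison. The shares of all features were 21.2% for triploid minus diploid, 14.8% for tetraploid minus diploid and 20.8% for triploid minus tetraploid. The called gene, Ccno, had -2.52, -2.22 and -1.40 in triploid clones against -0.19, 0.04 and 1.16 in tetraploid clones, and -0.53, -0.67 and -0.61 in diploid clones (triploid minus tetraploid -2.38 ± 0.40, adjusted p = 0.0212). The call was lost under 4 of 19 alternatives, with an adjusted p of up to 0.0842. Ccno was not called against diploid clones (triploid minus diploid -1.44 ± 0.40, adjusted p = 0.0944). Mcidas also lay lower for triploid minus diploid (-0.72 ± 0.25, adjusted p = 0.157). For tetraploid minus diploid, Mcidas lay lower (-0.61 ± 0.25, adjusted p = 0.307) and Ccno higher (0.94 ± 0.40, adjusted p = 0.315).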

How the data were processed

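RNA from 9 clones was hybridised to one-colour (Cy3) Agilent mouse arrays. Per the file headers, the authors read spots with Feature Extraction 10.7.3.1, and the deposited processed signal is an intensity after background subtraction by that software, with no normalization between arrays. The deposited table of log2 values holds each array's log2 processed signal less 1 constant and less that of diploid clone 1, to within 0.001 (100% of probes checked), and was used as an alternative.

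Groups came from the labels. Spots of a probe were averaged (59305 spots that are not controls, 55681 probes), and log2 signals were centred on each array's 75th percentile. A probe was kept when every array of some group showed it well above background (25473 probes, after dropping 40 for outlier marks). RefSeq identifiers were paired with symbols and chromosomes through a table of GRCm38.p6, which named 26407 probes and left 29274 unnamed. The array design was drawn up on mm9, and no design coordinates were used. Group means were fitted over all 9 arrays with limma 3.58.1 in R 4.3.3 (prior degrees of freedom 3.19), with Benjamini-Hochberg adjustment over 21802 features, 9368 of them unnamed.

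Genes given in full were, per role group, those with the smallest and largest p of the test of any difference and, per comparison, the 3 largest differences each way; others are added for the account of each role. Of other lists, every called gene was named, up to 6, or else the 2 of smallest p, given for part of the lists. Members, role groups, lists, motifs and the printed promoters were chosen with earlier results of these data known. The precision is set by the 3 clones per group, since arrays hold no counts.

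Alternatives were other scalings, quantile normalization, normexp background correction (offset 50) on median pixel signals in place of mean signals, which the files used here do not hold, other filters on dim probes, the mean of a gene's probes, slide and clone number as blocks, only the groups compared, the deposited table, and leaving out each array.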

Additional observations from a re-analysis of the deposited data

How the results depend on the processing

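No member was called under the 10 settings that keep all arrays or block by slide or clone number. Of 475 recomputed differences of single members (25 differences under 19 settings), 460 kept their direction and side of the threshold, 3 newly passed it, 0 lost it and 12 changed sign, all of the last for triploid minus diploid and none past the threshold. As no member was called with the main settings, none could lose a call. The 25 were differences of members given in full, with an unadjusted p under 0.05 or among the 3 largest each way. Members with the smallest or largest p of the test of any difference were added for triploid minus diploid only. Where the signs changed depends on this choice. Outside the 25 signs changed too, with Cep97 between -0.44 and 0.19 for tetraploid minus diploid. Within the 25, for triploid minus diploid, scaling on probes detected on all arrays gave -0.078 for Cep192 and -0.035 for Cdk5rap2. With 1 array left out, Cep192 ran between -0.042 and 0.25. Cenpj was 0.078 with a slide block (the same fit as without diploid clone 1) and ran between -0.30 and 0.12 with 1 array left out. Haus1 likewise ran between -0.42 and 0.18, Odf2 between -0.27 and 0.016, and Pcm1 between -0.068 and 0.63, its lowest value without diploid clone 2. The counts over all features moved more. For triploid minus diploid (400) they were 103 with no filter on dim probes, 81 with slide as a block and 206 with only the 2 groups compared. For tetraploid minus diploid (16) they were 97 with scaling on detected probes (3 higher and 94 lower), 5 with quantile normalization, 6 with normexp, 0 with no filter and 0 with slide as a block. For triploid minus tetraploid (589) they were 198 with no filter, 284 with slide as a block and 369 with only the 2 groups. For any difference (518) they were 794, 153 and 173 with scaling on detected probes, no filter and slide as a block. Leaving out 1 array gave 61 to 1434 features for triploid minus diploid, 0 to 40 for tetraploid minus diploid, 117 to 1312 for triploid minus tetraploid and 75 to 1461 for any difference, and 0 to 2, 0 to 0, 0 to 1 and 0 to 1 members. The highest counts of the comparisons with triploid clones, and the members called, came without triploid clone 1. The cause of these changes was not tested. Clone numbers do not pair the samples, since deviations of same-numbered clones correlated between -0.132 and 0.0927. With clone number as a replicate block, 219 features were called for triploid minus diploid, 0 for tetraploid minus diploid, 465 for triploid minus tetraploid and 363 for any difference, with 0 members in each. With 3 clones a group, unadjusted 95% intervals reach 0.43 to 0.99 to either side, so smaller differences of the members could not be shown. These widths are not the limit for a call, since the adjustment over all features asks for more. Larger differences were also not called, such as Ninl at 1.43 for triploid minus tetraploid (adjusted p = 0.0633). Pcm1 at 1.04 for tetraploid minus diploid (adjusted p = 0.234) was another.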
